A study of Homo sapiens with 6 samples.

Results

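The genes described here are 45 genes of the cellular response to low oxygen and of glycolysis, given as a list of symbols. Each was represented by the brightest of the probe sets paired with that gene alone, which was found for 44 of the 45 among 19775 genes in all. CA9 was not analysed here. They were measured in LNCaP, a long-established line from human prostate cancer, treated with small interfering RNA to the non-coding RNA PCARNEQ (siPCARNEQ) or with control small interfering RNA to EGFP (siEGFP), a jellyfish protein that human cells lack. Total RNA of each group was hybridised to 3 single-colour arrays, and both groups received a small interfering RNA, with no untreated cells among the samples. The design text speaks of triplicate arrays for the RNA of an experiment, and the labels name no separate cultures, dose or time, so a p-value here reflects array-to-array spread alone, possibly a technical one. No probe set was paired with PCARNEQ in the annotation used, so its own level was not analysed here.

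Cells sense oxygen through the hypoxia-inducible factors (HIF), dimers of an oxygen-labile alpha subunit (HIF1A or EPAS1) and the stable partner ARNT. When oxygen is present, the prolyl hydroxylases EGLN1, EGLN2 and EGLN3 mark the alpha subunit, and VHL directs its degradation. When oxygen is scarce, the dimer binds short motifs with the core ACGTG or GCGTG and switches on genes for glucose uptake, glycolysis, blood vessel growth and acid export, as well as EGLN1 and EGLN3, which close a negative feedback loop. The alpha subunits are controlled mostly as proteins, which an array of RNA does not measure. Glycolysis breaks glucose down to pyruvate, which is reduced to lactate or sent to the mitochondria.

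The arrays had been brought to 1 common distribution by the depositors, with a median log2 intensity of 7.03 on each, and a level below that median was not shown to be above background. Arrays 2 and 3 of a group were close to each other, with an SD of the log2 difference across probe sets of 0.136 in siPCARNEQ and 0.129 in siEGFP, against 0.232 to 0.373 for array 1 against either. RNA integrity, read from the log2 excess of 3' over 5' control probe sets, also set siPCARNEQ array 1 apart, at 1.84 for ACTB where the other 5 had 0.63 to 0.78, and at 0.26 for the member GAPDH where they had -0.14 to -0.03. Of the 44 members, 6 lay more than 0.5 from arrays 2 and 3 in siPCARNEQ array 1 and 2 in siEGFP array 1. The part of RNA integrity in the results was not tested beyond the values given without that array. Mean levels over the 6 arrays were 8.74 to 13.84 for the 10 measured luminal prostate markers and 3.82 to 7.28 for the 6 measured neuroendocrine ones. They were 5.08 to 7.47 for the 4 immune markers and 4.79 to 7.69 for the 4 endothelial ones. The 4 basal markers had 5.79 to 8.59. The 8 fibroblast and smooth muscle markers had 6.26 to 10.23, a range that reached into the luminal one. The luminal markers KLK3, KRT18, STEAP2 and HOXB13, which all rose, had group means of 12.17 to 14.10. Luminal markers moved with the group: 7 of 10 rose, and KLK2, SLC45A3 and FOLH1 did not pass. The summed intensity of the 10 ran from 81287 to 87197 in siPCARNEQ and from 54906 to 56332 in siEGFP. Among 4 basal markers KRT14 passed in the upward direction, but below the array median in both groups (6.30 and 5.28), so no size is given. Of 8 fibroblast and smooth muscle markers COL1A1 and LUM rose by 1.11 and 1.39, LUM from a siEGFP mean below the array median (5.78), and ACTA2 fell by 0.46. The part of these markers in the results was not tested. In bulk RNA, fewer cells of a type and less RNA per cell cannot be told apart.

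The sequences below are shown because these 4 members had the largest changes among those that passed and had a listed window with a HIF core motif. NDRG1 and NDRG3, the largest rises, had no listed window, and P4HA2 had no motif in any listed window, so they are not shown. Each sequence is the 250 bases before a transcription start in RefSeq (GRCh38.p14), read along the gene's strand. Capitals mark ACGTG or GCGTG on either strand (CACGT and CACGC when read on this one). HK2, a hexokinase that fell, is shown at chr2:74834920-74835169 (plus strand, 1 of 2 starts), ANKRD37, an ankyrin repeat protein that rose, at chr4:185396591-185396840 (plus, its 1 start), ERO1A, an oxidase of the endoplasmic reticulum that fell, at chr14:52695559-52695808 (minus, its 1 start), and PFKP, a phosphofructokinase that fell, at chr10:3104359-3104608 (plus, 1 of 4 starts).
HK2: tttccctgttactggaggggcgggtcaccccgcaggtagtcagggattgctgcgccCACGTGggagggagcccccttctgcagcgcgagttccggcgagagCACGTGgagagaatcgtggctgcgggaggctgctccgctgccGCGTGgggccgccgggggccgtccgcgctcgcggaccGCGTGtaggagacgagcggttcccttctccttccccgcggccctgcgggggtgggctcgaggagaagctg
ANKRD37: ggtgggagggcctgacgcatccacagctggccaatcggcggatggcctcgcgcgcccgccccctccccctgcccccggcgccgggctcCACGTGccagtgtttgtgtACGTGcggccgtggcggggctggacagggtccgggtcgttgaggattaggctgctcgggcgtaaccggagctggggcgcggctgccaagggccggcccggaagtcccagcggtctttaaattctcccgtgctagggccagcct
ERO1A: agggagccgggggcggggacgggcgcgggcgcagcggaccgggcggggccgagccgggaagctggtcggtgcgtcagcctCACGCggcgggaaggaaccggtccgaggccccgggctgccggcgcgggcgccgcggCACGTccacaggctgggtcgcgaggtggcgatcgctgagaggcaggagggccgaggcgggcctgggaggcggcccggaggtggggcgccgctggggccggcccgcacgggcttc
PFKP: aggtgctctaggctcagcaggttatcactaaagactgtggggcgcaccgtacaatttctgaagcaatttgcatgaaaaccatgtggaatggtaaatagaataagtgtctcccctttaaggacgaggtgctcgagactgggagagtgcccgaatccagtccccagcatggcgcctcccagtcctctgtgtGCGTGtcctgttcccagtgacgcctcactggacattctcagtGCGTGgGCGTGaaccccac

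The motif matched at 4 places in the HK2 window, 2 in ANKRD37, 2 in ERO1A and 3 in PFKP. The HK2 and PFKP windows shown hold the most matches of any window of their gene, and their other starts are not shown. Both capital runs of CACGTG in HK2 and the one in ANKRD37 read the same on both strands and count as 1 place each, and CACGTG is also the core of the E-box bound by MYC and other factors. Of the 44 members, 38 had at least 1 window, and 31 of these (81.6%) held the motif in at least 1 of their windows, against 47.4% of all 27305 genes with a window. Genes with more starts have more chances to match, and per window the share was 57.1% of 70 windows for members and 43.2% of all 35116. NDRG1, NDRG3 and VEGFA, which rose, had no window and are outside the counts that follow. Members that rose, fell or did not pass held the motif in 8 of 9, 8 of 11 and 15 of 18 cases. The motif thus occurred in promoters of members that moved in either direction. A match describes letters in the window and is not a binding site.

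The contrast sets cells with PCARNEQ targeted against cells with the control small RNA. The members did not move as 1 group: 12 rose, 11 fell and 21 did not pass, where passing means an adjusted p under 0.05 over all genes (limma, Benjamini-Hochberg, n = 3 arrays per group). Among all genes 27.5% changed, 15.2% rose and 12.3% fell. Members were bright genes, and among the genes above the median level 48.7% changed, beside 24 of 38 members in that fit. The median log2 change was 0.01 over the members and -0.01 over all genes. The largest rises were NDRG1 (2.67-fold) and NDRG3 (2.48-fold), and the largest fall was HK2, to 35.7% of the control level. Glycolytic enzymes and their regulators, from the hexokinases to LDHB, gave 5 rises, 7 falls and 7 without a call, and HK1 against HK2 and ENO1 against ENO2 were the isoforms called in opposite directions. Both glucose transporters were without a call, and of the 4 HIF degradation and feedback genes 2 fell, EGLN1 and EGLN3.

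The groups did not overlap in 33 of the 44 members, where 44.0% of all genes had no overlap, and in all 23 that passed. The lack of overlap by itself gives these 23 the same sign in array 1 as in arrays 2 and 3, so the shared sign is no separate check. Without siPCARNEQ array 1, 11 rose and 13 fell, where 31.9% of all genes changed (17.4% rose, 14.5% fell). With the replicate number as a block 12 rose and 13 fell, where 34.6% of all genes changed (19.2% rose, 15.3% fell), and in arrays 2 and 3 alone 15 rose and 13 fell, where 41.6% changed (22.8% rose, 18.8% fell). The count was 15 without siEGFP array 2 (9 rose, 6 fell), where 18.7% of all genes changed (10.3% rose, 8.39% fell). It was 14 without siEGFP array 3 (9 rose, 5 fell), where 18.8% of all genes changed (10.4% rose, 8.38% fell). Without siEGFP array 1, 12 rose and 7 fell, where 24.0% of all genes changed (13.5% rose, 10.5% fell). When the close arrays 2 and 3 were counted as 1 sample per group, 10 members passed, where 11.3% of all genes did (6.05% rose, 5.26% fell): ANKRD37, P4HA2, NDRG1, NDRG3, HK1, PFKFB3 and PFKFB4 rose, and HK2, PFKP and ENO1 fell. These 10 also passed without each array in turn.

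**Figure D1:**
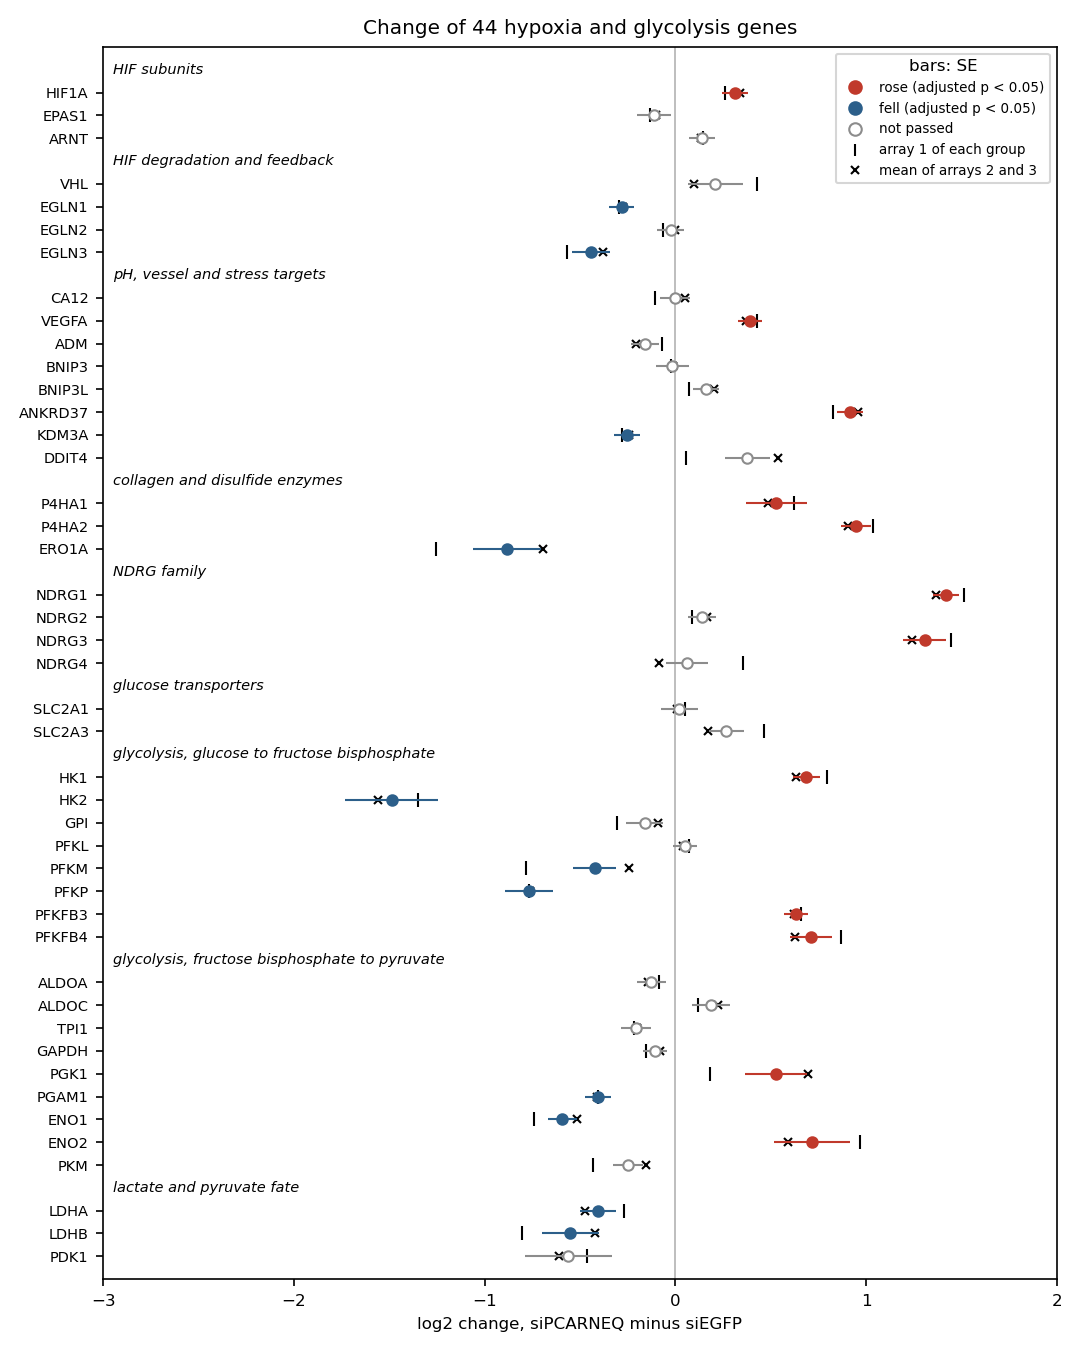
Log2 change of each of the 44 measured genes, siPCARNEQ minus siEGFP (x axis), by role (y axis); points are the means over 3 arrays per group with the SE from limma, and small marks give the change between the 2 arrays 1 and between the means of arrays 2 and 3. Called rises and falls both occur in the stress targets, the collagen and disulfide enzymes and both stretches of glycolysis, with NDRG1 (1.42) and HK2 (-1.49) as the extremes.

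HIF subunits came first in the pathway. HIF1A RNA measured 13.69, 13.79 and 13.80 (log2 intensity, arrays 1 to 3) in siPCARNEQ and 13.43, 13.46 and 13.46 in siEGFP. All 3 siPCARNEQ arrays lay above all 3 controls, a rise of 0.31 (SE 0.07, adjusted p = 0.011), or 1.24-fold, with an adjusted p of 0.144 once arrays 2 and 3 were averaged. ARNT, the common partner, had a change of 0.14 (adjusted p = 0.194). EPAS1, which encodes the HIF-2 alpha subunit, lay near the array median, at 7.10 ± 0.12 in siPCARNEQ and 7.21 ± 0.11 in siEGFP (SD, n = 3), and its groups overlapped (change -0.11, adjusted p = 0.429). Of the brightest probe sets of these 3 genes, that of HIF1A alone passed, and the within-array difference of HIF1A to EPAS1 was higher in siPCARNEQ by 0.42 with no overlap.

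The degradation and feedback genes include EGLN1, the main oxygen sensor in most cells, at 11.74, 11.69 and 11.68 in siPCARNEQ and 12.04, 11.95 and 11.96 in siEGFP. EGLN3, a hydroxylase strongly induced by HIF in many cells, measured 7.61, 7.89 and 7.91 in siPCARNEQ against 8.18, 8.23 and 8.33. Neither gene's groups overlapped, and both fell, EGLN1 by 0.28 (SE 0.06, adjusted p = 0.0161) and EGLN3 by 0.44 (SE 0.10, adjusted p = 0.0143). EGLN1 has 4 probe sets, of which 3 fell over all probe sets, a dimmer one by 0.75, and the dimmest had a change of -0.24. EGLN3 has a second probe set with a change of -0.26 that did not pass. VHL measured 9.25, 8.71 and 8.81 in siPCARNEQ and 8.83, 8.64 and 8.68 in siEGFP, so siPCARNEQ array 1 stood above the rest and the other values overlapped (change 0.21, adjusted p = 0.346). EGLN2 lay below the array median in both groups (5.79 and 5.81). The EGLN1 call ended without siPCARNEQ array 2 or 3 or siEGFP array 2 or 3 (adjusted p = 0.0547 to 0.0631), and that of EGLN3 without siEGFP array 2 or 3 (0.0523 and 0.0627). With arrays 2 and 3 averaged, adjusted p was 0.158 for EGLN1 and 0.0909 for EGLN3, and EGLN3 also lost its call in the mean of its probe sets (0.101).

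Among secreted, stress and chromatin targets, VEGFA, the growth factor for blood vessels, measured 11.42, 11.34 and 11.35 in siPCARNEQ and 10.99, 10.94 and 11.01 in siEGFP. It rose by 0.39 (SE 0.06, adjusted p = 0.00406), or 1.31-fold, with no overlap. Its other 3 probe sets, all dimmer, had changes of -0.05 to 0.18 and did not pass, so in the mean of its probe sets VEGFA had a change of 0.17 (adjusted p = 0.159), and with arrays 2 and 3 averaged it did not pass either (0.0679). ANKRD37 measured 10.43, 10.42 and 10.48 in siPCARNEQ and 9.60, 9.48 and 9.50 in siEGFP. This rise of 0.92 (SE 0.07, adjusted p = 0.000157), or 1.89-fold, left a wide gap between the groups, while a dim second probe set below the array median had a change of -0.11. KDM3A, a histone demethylase induced by HIF, fell by 0.25 (adjusted p = 0.0276) in its brightest probe set, at 9.29 ± 0.03 in siPCARNEQ and 9.54 ± 0.06 in siEGFP (SD, n = 3). The KDM3A call held in 1 of the 6 fits that left out an array, the one without siPCARNEQ array 1 (adjusted p = 0.0196). In the other 5 adjusted p was 0.0595 to 0.0933. The call also ended with arrays 2 and 3 averaged (0.194) and in the mean of its 2 probe sets (-0.10, 0.366). The second of these lay below the array median in both groups (3.91 in siPCARNEQ and 3.86 in siEGFP).

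The other 5 measured members of this role were without a call. DDIT4, a stress-induced inhibitor of the growth kinase mTOR, measured 12.83, 12.89 and 12.96 in siPCARNEQ and 12.77, 12.41 and 12.36 in siEGFP. Its groups did not overlap, but siEGFP array 1 lay close to the treated arrays (change 0.38, adjusted p = 0.0504), and without that array the change was 0.51 (adjusted p = 0.00602). BNIP3 and BNIP3L, which mark mitochondria for degradation, had changes of -0.02 and 0.16, ADM, a peptide that widens vessels, of -0.16, and CA12, a carbonic anhydrase that helps to export acid, of -0.0024. All 7 probe sets of CA12 were without a call, with changes of -0.20 to 0.04. These classic HIF targets thus gave no common direction.

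The enzymes of collagen and disulfide formation split. P4HA2, the alpha subunit of a collagen prolyl hydroxylase, measured 10.94, 11.04 and 10.97 in siPCARNEQ and 9.90, 10.08 and 10.12 in siEGFP, and rose 1.93-fold (log2 change 0.95, SE 0.08, adjusted p = 0.000263). P4HA1, the other alpha subunit on the list, measured 11.68, 11.16 and 11.24 against 11.06, 10.70 and 10.73. Array 1 was the highest of each group, the groups did not overlap, and the rise was 0.53 (SE 0.16, adjusted p = 0.0441). ERO1A, which passes electrons from newly made disulfide bonds to oxygen, measured 9.14, 9.87 and 9.73 in siPCARNEQ and 10.40, 10.49 and 10.50 in siEGFP. It fell by 0.88 (SE 0.18, adjusted p = 0.00934), with the lowest value in siPCARNEQ array 1, and by 0.66 without that array. Its other 2 probe sets had changes of -0.07 and -0.21 and did not pass. The mean of the 3 fell by 0.39 (adjusted p = 0.00354), and with arrays 2 and 3 averaged ERO1A did not pass (adjusted p = 0.0535). The P4HA1 call ended without siPCARNEQ array 1 (0.37, adjusted p = 0.0581), siPCARNEQ array 3 (0.0672), siEGFP array 2 (0.145) or siEGFP array 3 (0.142), with a pseudocount of 32 (0.0532) and with arrays 2 and 3 averaged (0.163). In the mean of its 2 probe sets P4HA1 had a change of 0.23 (adjusted p = 0.124), its dim second one, below the array median, having a change of -0.08.

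The NDRG family gave the largest rises. NDRG1, a stress-responsive gene induced by hypoxia and by androgens, measured 11.75, 11.68 and 11.74 in siPCARNEQ and 10.24, 10.36 and 10.32 in siEGFP (log2 change 1.42, SE 0.07, adjusted p = 3.99e-05). NDRG3, a relative bound by lactate under low oxygen, measured 12.86, 12.52 and 12.50 against 11.42, 11.25 and 11.29 (1.31, SE 0.11, adjusted p = 0.000272). For both, every siPCARNEQ array lay more than 1 log2 unit above every control array. All 3 probe sets of NDRG3 rose over all probe sets, by 1.01 to 1.46. NDRG2, a relative often low in tumours, and NDRG4, best known from brain and heart, had changes of 0.14 (adjusted p = 0.208) and 0.06 (adjusted p = 0.743), and NDRG4 lay below the array median in both groups. The mean of the 3 NDRG2 probe sets had a change of -0.06.

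**Figure D2:**
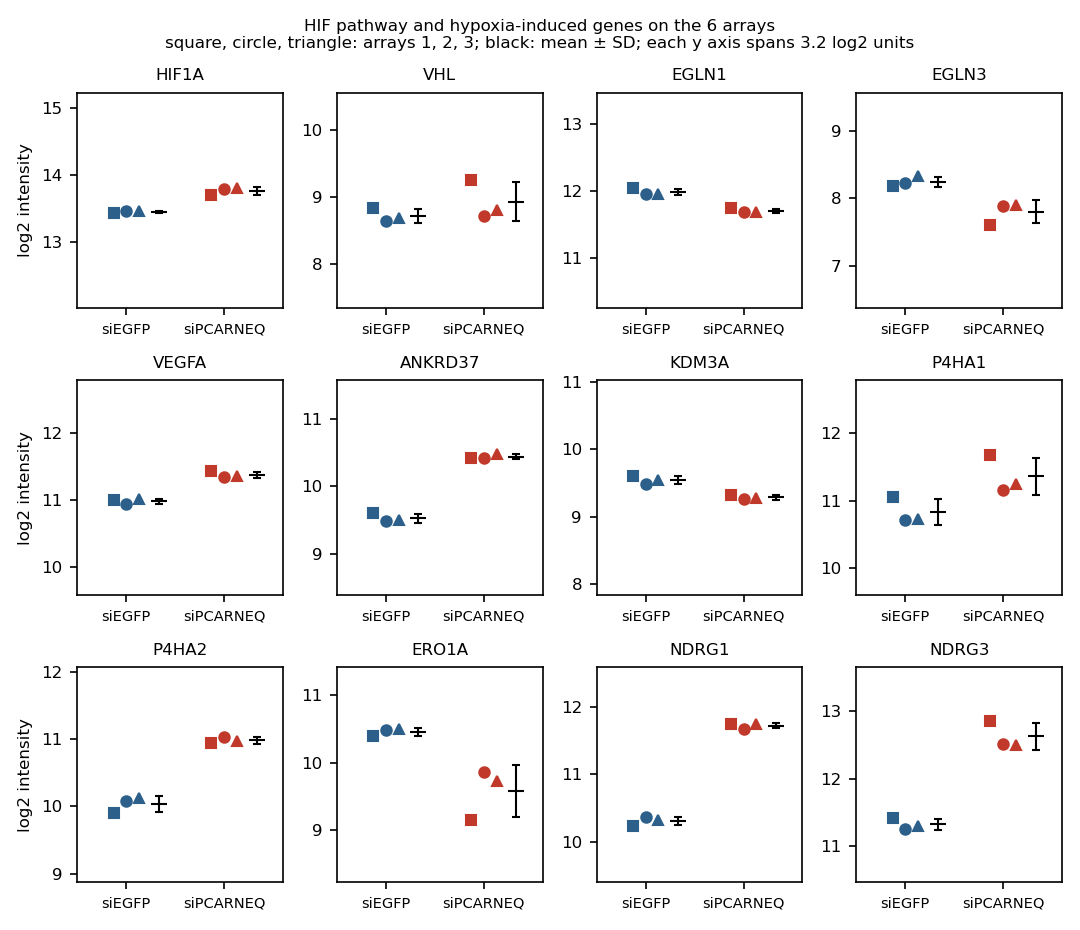
Log2 intensity (y axis) of 12 HIF pathway and hypoxia-induced genes in the 3 siEGFP and 3 siPCARNEQ arrays (x axis), with the mean and SD of each group in black. NDRG1, NDRG3, P4HA2 and ANKRD37 separate widely, HIF1A, EGLN1 and KDM3A by small steps, and siPCARNEQ array 1 (square) stands apart in VHL, P4HA1 and ERO1A.

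Glucose enters through facilitative transporters. SLC2A1, the widely expressed transporter GLUT1, measured 9.78, 9.51 and 9.58 in siPCARNEQ and 9.73, 9.52 and 9.56 in siEGFP. The arrays of both groups interleaved (change 0.02, SE 0.10, adjusted p = 0.905). SLC2A3, the high-affinity transporter GLUT3, lay below the array median in both groups (6.88 and 6.61), with a change of 0.27 (adjusted p = 0.0704), and neither of its other 2 probe sets passed.

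Hexokinase, the enzyme that traps glucose in the cell, changed in opposite directions in its isoforms. HK1, the isoform found in most tissues, measured 12.80, 12.67 and 12.69 in siPCARNEQ and 12.01, 12.02 and 12.08 in siEGFP and rose by 0.69 (SE 0.07, adjusted p = 0.000493). HK2, the isoform of muscle and many tumours and a HIF and MYC target, measured 9.62, 8.83 and 8.86 against 10.97, 10.40 and 10.40. Array 1 was the highest in both groups of HK2, and HK2 fell by 1.49 (SE 0.24, adjusted p = 0.00389), with a change of -1.35 between the arrays numbered 1 and -1.56 between the means of arrays 2 and 3. All 3 HK2 probe sets fell over all probe sets, with log2 changes of -1.49, -0.98 and -1.33. The dimmer ones lay below the array median in siPCARNEQ (6.65 and 5.87, from 7.63 and 7.21 in siEGFP), so their sizes carry that limit. The within-array difference of HK1 to HK2 was higher in siPCARNEQ by 2.18, the widest gap among the pairs compared.

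Phosphofructokinase, which commits sugar to glycolysis, was lower in its muscle and platelet isoforms. PFKP, the platelet form, measured 9.89, 9.56 and 9.59 in siPCARNEQ and 10.66, 10.34 and 10.34 in siEGFP and fell by 0.77 (SE 0.13, adjusted p = 0.0038). Its dim second probe set, below the array median, had a change of -0.15. PFKM, the muscle form, fell by 0.42 (SE 0.11, adjusted p = 0.0297), with a change of -0.79 in array 1 and -0.24 in arrays 2 and 3, and lost its call without any 1 of the 3 siEGFP arrays (adjusted p = 0.0601 to 0.0846) and with arrays 2 and 3 averaged (0.101). PFKL, the liver form, had a change of 0.05 (adjusted p = 0.605). The bifunctional enzymes PFKFB3 and PFKFB4, which set the level of the sugar bisphosphate that activates phosphofructokinase and are induced by HIF, both rose. PFKFB3 measured 9.50, 9.45 and 9.53 in siPCARNEQ and 8.84, 8.88 and 8.86 in siEGFP (0.63, SE 0.06, adjusted p = 0.000481), and PFKFB4 measured 10.17, 9.76 and 9.95 against 9.30, 9.25 and 9.19 (0.71, SE 0.11, adjusted p = 0.00292). A second PFKFB4 probe set had a change of 0.11 that did not pass. GPI, which turns glucose phosphate into fructose phosphate, had a change of -0.16 (adjusted p = 0.276).

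In the lower part of the pathway, from the splitting of the sugar to pyruvate, the 9 genes gave 2 rises, 2 falls and 5 without a call. ALDOA and ALDOC, the aldolases on the list, and TPI1, which interconverts the triose phosphates, had changes of -0.12, 0.19 and -0.21 and did not pass, although TPI1 passed with the replicate number as a block (adjusted p = 0.0481). GAPDH, often used as a control gene, measured 14.78, 14.81 and 14.84 in siPCARNEQ and 14.93, 14.90 and 14.91 in siEGFP. Every treated array lay below every control array, by a margin too small to pass (-0.11, SE 0.06, adjusted p = 0.269). PGK1, the first enzyme to return ATP, rose by 0.53 (SE 0.16, adjusted p = 0.0493), from 13.09, 13.19 and 13.15 in siEGFP to 13.27, 13.87 and 13.87 in siPCARNEQ. siPCARNEQ array 1 lay nearest the controls, and without it the rise was 0.73 (adjusted p = 0.00047). PGK1 lost its call without any other 1 array (adjusted p = 0.113 to 0.142) and with a pseudocount of 32 (0.0591). The call also ended with arrays 2 and 3 averaged (0.266) and in the mean of its 6 probe sets (0.0923). All 6 had changes above 0 (0.22 to 0.56). Of these, 2 rose over all probe sets, 1 of them below the array median in both groups (5.84 and 5.43). In 2 others siPCARNEQ array 1 lay below every control array (11.80 against 12.22 to 12.35, and 10.73 against 11.06 to 11.24).

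PGAM1, the phosphoglycerate mutase, measured 13.54, 13.60 and 13.64 in siPCARNEQ and 13.94, 14.03 and 14.03 in siEGFP and fell by 0.41 (SE 0.07, adjusted p = 0.00407, and 0.0719 with arrays 2 and 3 averaged). ENO1, the enolase of most cells, measured 13.43, 13.60 and 13.64 against 14.17, 14.13 and 14.14 and fell by 0.59 (SE 0.08, adjusted p = 0.00147). All 4 ENO1 probe sets had changes below 0 (-0.82 to -0.24), and the brightest of them fell over all probe sets. ENO2, the enolase of neurons that also serves as a neuroendocrine marker, measured 9.73, 9.03 and 9.06 in siPCARNEQ and 8.76, 8.41 and 8.49 in siEGFP. Array 1 was the highest in each group, the groups did not overlap, and the rise was 0.72 (SE 0.20, adjusted p = 0.0323). The 6 measured neuroendocrine markers had changes of -0.23 to 0.10, all without a call. Of these 6, 4 lay below the array median, where a change may not be measured. ENO2 lost its call without siEGFP array 2 (0.114) or array 3 (0.104) and with arrays 2 and 3 averaged (0.117). PKM, the pyruvate kinase of most tissues and tumours, measured 12.66, 12.79 and 12.85 in siPCARNEQ and 13.09, 12.97 and 12.99 in siEGFP, with no overlap and a change of -0.25 that did not pass (adjusted p = 0.0555).

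Lactate dehydrogenase turns pyruvate into lactate and back. LDHA, its HIF-induced subunit, measured 14.21, 13.92 and 13.94 in siPCARNEQ and 14.48, 14.38 and 14.42 in siEGFP, and fell by 0.40 (SE 0.09, adjusted p = 0.0163). LDHB, the heart-type subunit, measured 13.59, 14.12 and 14.11 against 14.39, 14.58 and 14.49, and fell by 0.55 (SE 0.15, adjusted p = 0.0301), with both of its probe sets lower. In siPCARNEQ array 1, LDHA was the highest and LDHB the lowest of the treated arrays. PDK1, the HIF-induced kinase that turns off pyruvate dehydrogenase and so keeps pyruvate out of the mitochondria, measured 10.66, 10.03 and 9.91 in siPCARNEQ and 11.12, 10.52 and 10.63 in siEGFP. Array 1 was high in both groups and siPCARNEQ array 1 lay above siEGFP arrays 2 and 3, so the change of -0.56 did not pass (adjusted p = 0.118). PDK1 did pass with the replicate number as a block (adjusted p = 0.00313) and without siPCARNEQ array 1 (-0.79, adjusted p = 0.0171), and its second probe set fell by 0.77 over all probe sets (adjusted p = 0.0193). LDHA lost its call without siPCARNEQ array 2 or 3 or siEGFP array 1 or 3 (adjusted p = 0.0527 to 0.061), LDHB without any 1 of the 3 siEGFP arrays (0.0584 to 0.107), and both with arrays 2 and 3 averaged (0.15 and 0.111).

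**Figure D3:**
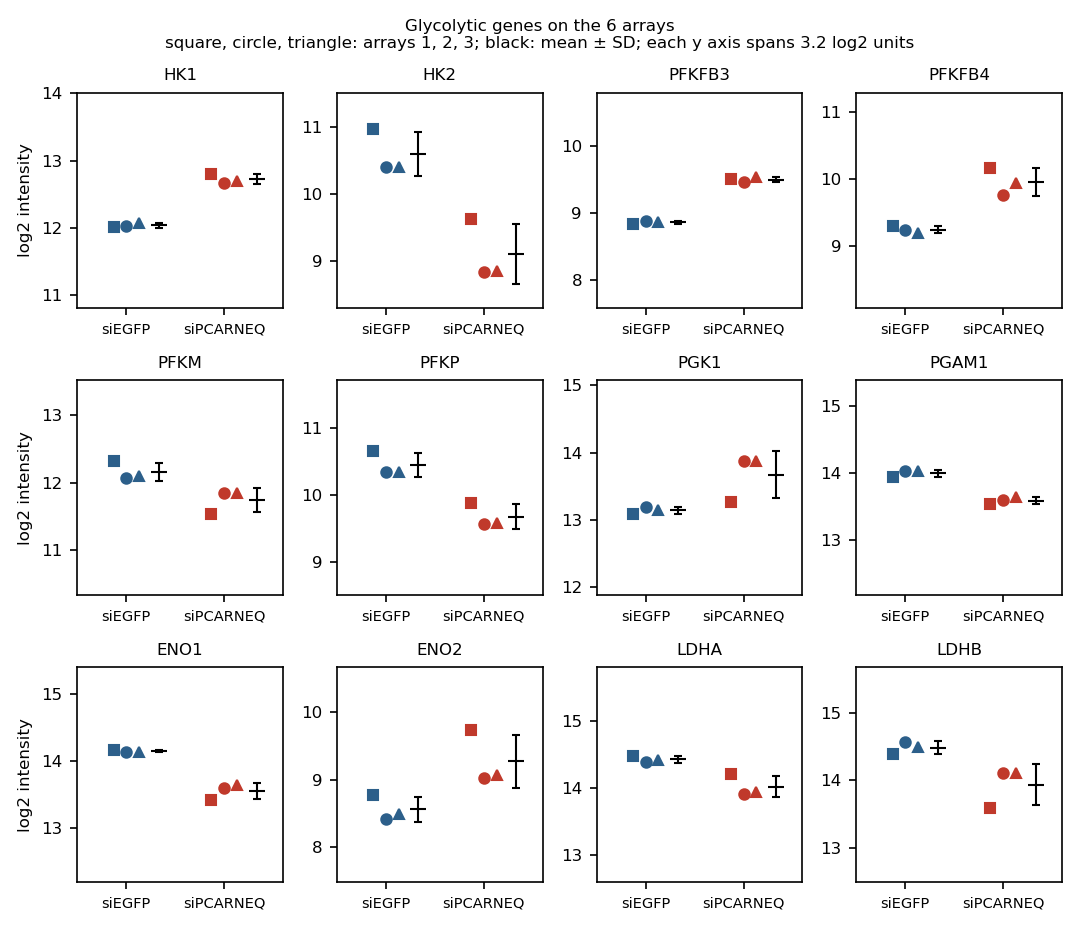
Log2 intensity (y axis) of 12 glycolytic genes in the 3 siEGFP and 3 siPCARNEQ arrays (x axis), with the mean and SD of each group in black. HK1 and HK2 and likewise ENO1 and ENO2 move in opposite directions, and the squares (array 1) of HK2 are the highest in both groups.

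Unequal change within families was measured as the within-array log2 difference of 2 members, over 21 pairs. The groups did not overlap in 13 pairs, each with an exact 2-sided permutation p of 0.1, the smallest that 3 against 3 arrays allow (0.162 adjusted over the 21 pairs), so no pair could pass. Beside HK1 minus HK2 (2.18), it differed between the groups by -1.31 for ENO1 minus ENO2, by 1.28 and 1.36 for NDRG1 minus NDRG2 and NDRG4, by -1.17 for NDRG2 minus NDRG3 and by 1.25 for NDRG3 minus NDRG4. NDRG4 lay below the array median, where a change of its RNA may not be measured, so both differences to it carry that limit. NDRG1 and NDRG3 overlapped in their change (gap 0.11, exact permutation p = 0.5), as did PFKFB3 and PFKFB4 (-0.08, p = 0.7) and LDHA and LDHB (0.15, p = 0.9). The difference of PFKL to PFKM was higher in siPCARNEQ by 0.47 and that to PFKP by 0.82, while that of PFKM to PFKP overlapped (0.34, exact permutation p = 0.4). The LDHA and LDHB gap was 0.54 between the arrays numbered 1 and -0.05 between the means of arrays 2 and 3.

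**Figure D4:**
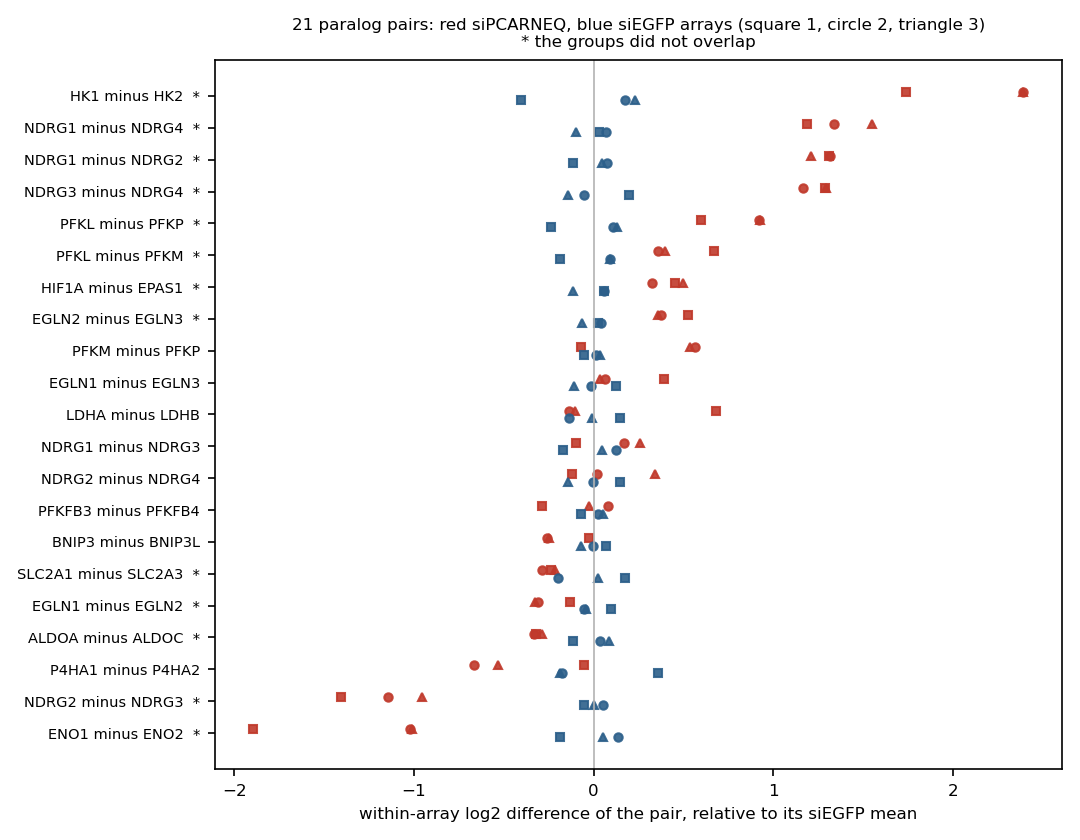
Within-array log2 difference of each of 21 family pairs (y axis), centred on the mean of the 3 siEGFP arrays (x axis), with 1 point per array. HK1 minus HK2 lies 1.74 to 2.39 above the control mean in the 3 siPCARNEQ arrays, and ENO1 minus ENO2 at -1.90 to -1.01.

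The probe sets that the choice of the brightest left out gave a second readout. The members had 105 probe sets, of which 14 rose and 17 fell over all probe sets (of the 54613 tested, 18.5% changed, 9.92% rose and 8.61% fell). Of the 61 that were not the brightest of their gene, 29 belonged to 15 of the members that passed. Among these 29, 24 had the sign of the brightest probe set, 4 rose and 5 fell, and 0 passed in the opposite direction. The 5 with the other sign belonged to VEGFA, ANKRD37, KDM3A, P4HA1 and P4HA2, and P4HA2 had, beside its brightest, changes of 0.28 and -0.21. All of these 5 but that of VEGFA lay below the array median in both groups, where a change may not be measured. Every probe set passed in HK2, NDRG3 and LDHB. The brightest probe sets of P4HA1 and PGK1, which passed over genes, did not pass over all probe sets (adjusted p = 0.0657 and 0.0725).

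**Figure D5:**
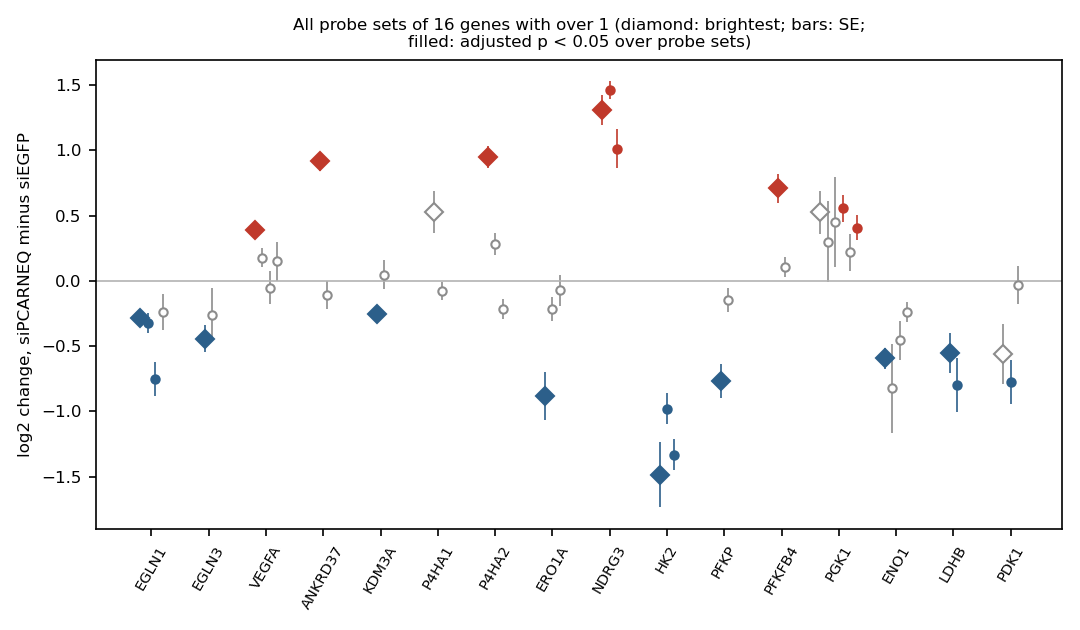
Log2 change with its SE (y axis) of every probe set of 16 members with more than 1 (x axis), namely the 15 that passed and PDK1; the diamond is the brightest probe set, and filled points passed over all probe sets. All probe sets of HK2 (-1.49 to -0.98) and NDRG3 (1.01 to 1.46) passed with the sign of the brightest. The dimmer ones of HK2 lay below the array median in siPCARNEQ. The brightest probe sets of ERO1A, ANKRD37 and P4HA2 lie far from the others.

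Other genes of the same pathways were taken from lists chosen from general knowledge, but with earlier results of these data known. Of the 126 genes listed, 113 were measured. Of these, 24 rose and 15 fell. Among all genes 27.5% changed (15.2% rose, 12.3% fell). Among the genes above the median level, in their own fit, 48.7% changed (26.2% rose, 22.5% fell). The count of changed context genes was 25 without siEGFP array 2 and 25 without siEGFP array 3. Among other HIF regulators, none below the array median in both groups, 5 of 13 rose and 8 did not pass (median change 0.17). They were the coactivator CREBBP (0.35, adjusted p = 0.00673), the ARNT relative ARNT2 (0.60, adjusted p = 0.0116), the ubiquitin ligases SIAH2 (0.45, adjusted p = 0.0172) and SIAH1 (0.43, adjusted p = 0.0177), which act on EGLN proteins, and OS9 (0.32, adjusted p = 0.0294). Among other hypoxia-induced genes, 6 of 26 rose and 5 fell, with a median of 0.01. The repressor BHLHE40 rose by 1.33 (SE 0.13, adjusted p = 0.000491), while SAP30, part of a histone deacetylase complex, and MXI1, a MYC antagonist, fell by 1.01 and 0.97, and the other falls were HILPDA, INSIG2 and LOX. The other rises were BHLHE41, a relative of BHLHE40 with the largest change of this list (1.47, SE 0.37, adjusted p = 0.0239), KDM4B (0.55), WSB1 (0.58), FAM162A (0.31) and PPFIA4, which like LOX lay below the array median in both groups. The HIF targets beyond the member list thus also moved both ways.

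Of 16 other glycolysis isoforms and side enzymes, 3 rose, 1 fell and the rest were without a call. PFKFB2, a relative of PFKFB3 and PFKFB4, rose by 1.37 (SE 0.13, adjusted p = 0.000381). LDHD, a mitochondrial dehydrogenase of D-lactate, rose by 1.01, and the ADP-dependent glucokinase ADPGK by 0.56. LDHC, the testis subunit, passed in the downward direction, but below the array median in both groups (6.38 and 6.90), so no size is given. Of 11 other glucose and lactate carriers, 2 rose and 1 fell. SLC16A7, the monocarboxylate carrier MCT2, measured 8.12, 8.27 and 8.16 in siPCARNEQ and 10.56, 10.38 and 10.28 in siEGFP, and fell by 2.22 (SE 0.09, adjusted p = 2.82e-05), more than any member. The glucose transporter SLC2A12 rose by 0.87. SLC2A10, another one, passed in the upward direction, but below the array median in both groups (4.93 and 4.14), so no size is given.

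Pyruvate dehydrogenase and the tricarboxylic acid cycle gave 5 rises and 6 falls among 30 measured genes, with a median of -0.04. SDHD, a membrane anchor of succinate dehydrogenase, fell by 1.88 (SE 0.18, adjusted p = 0.000438) and DLAT, the acetyl-transferring subunit of pyruvate dehydrogenase, by 1.22 (SE 0.11, adjusted p = 0.000365). PDK3, a kinase that acts on the same complex as PDK1, rose by 1.36 (SE 0.17, adjusted p = 0.00106), as did IDH1, IDH2, IDH3G and ACO1 by 0.23 to 0.48. In the pentose phosphate, hexosamine and glycogen list 3 of 17 rose and 2 fell. RPE, an epimerase of the pentose phosphate pathway, measured 8.58, 9.11 and 9.08 in siPCARNEQ and 10.95, 11.05 and 11.08 in siEGFP and fell by 2.11 (SE 0.14, adjusted p = 0.000115). GFPT1, which opens the hexosamine branch, and PYGL, the liver glycogen phosphorylase, rose by 0.78 and 1.04, RPIA by 0.36, and GNPNAT1 fell by 0.45.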

How the data were processed

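Total RNA was labelled as biotinylated cRNA and hybridised to single-colour arrays, per the labels' protocols. Each deposited value is a linear intensity per probe set that the authors obtained with RMA, per the submitters' processing notes. For RMA, the version, probe file and build were not given in the sources used here. After sorting, no log2 value differed between arrays by more than 0.0049, so total RNA differences between arrays are out of reach. Log2 was taken with no pseudocount. The platform annotation paired 41091 of 54613 non-control probe sets with 1 gene, and the brightest over all 6 arrays stood for each of 19775 genes. One linear model over all 6 arrays was fitted in R 4.3.3 by limma 3.58.1 (lmFit, eBayes), 2-sided, without covariates, with Benjamini-Hochberg adjustment over all genes, or over all probe sets where stated. The model was tested on simulated data with noise independent between arrays. That test does not cover the closeness of the real arrays 2 and 3 of a group. Pairs were compared with SciPy 1.17.1, and figures drawn with matplotlib 3.10.9. Precision is limited by the number of arrays.

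The members and lists were chosen with earlier results of these data known. All members could be named, values on every array were given for those that passed with a change of at least 0.5 and for 11 fixed genes, with others added, and up to 3 genes with the smallest p were named per context list. Context genes outside that rule complete a count of rises or falls and were chosen after their values were seen. Replicate numbers 1 to 3 are in both groups' labels. Deviations from group means correlated at 0.47, 0.30 and 0.34 for same-numbered arrays, all over 0.1, the level taken here as possible pairing. The labels state no such batch, and arrays 2 and 3 also correlated across numbers (0.24 and 0.37). Pairing by number thus cannot be told apart from a split of array 1 from arrays 2 and 3. The block was an alternative. Other alternatives were leaving out each array, arrays 2 and 3 averaged or alone, all probe sets of a gene averaged, probe sets without a suffix that marks several transcripts, genes above the median level, a pseudocount of 32, repeated quantile normalization and an intensity trend.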

Additional observations from a re-analysis of the deposited data

How the results depend on the processing

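A block on the replicate number gave 25 changed members (12 rose, 13 fell), the same 23 with PDK1 and TPI1, and ended no member's call. It also gave 36 changed member probe sets, 47 context genes and 6834 of all genes. Leaving out each array in turn gave 14 to 24 changed members (9 to 12 rose, 5 to 13 fell), 17 to 39 member probe sets beside 31, 25 to 47 context genes beside 39, 3701 to 6303 of all genes (2042 to 3444 rose, 1658 to 2859 fell) and 13 to 17 pairs without overlap. Leaving out arrays for context genes and pairs was chosen after seeing the data. With arrays 2 and 3 averaged, 10 members changed (7 rose, 3 fell), all among the 23, and 2236 of all genes (1196 rose, 1040 fell). Arrays 2 and 3 alone gave 28 members, 59 context genes and 8229 of all genes (4514 rose, 3715 fell). Probe sets without a suffix represented 25 members, of which 10 changed (6 rose, 4 fell): 10 of the 23 had no such probe set, and ERO1A, PGK1 and P4HA1 lost their call, P4HA1 turning to -0.0778. Changes near 0 also turned sign: CA12 to 0.0441 without suffixed probe sets and 0.0495 with arrays 2 and 3 alone, NDRG4 to -0.0877 with these arrays, NDRG2 to -0.0577 and SLC2A1 to -0.026 with probe sets averaged, and SLC2A1 to -0.0726 without suffixed ones. Over the arrays left out, the change ran from -0.0465 to 0.0196 in EGLN2, -0.0459 to 0.0605 in CA12, -0.0716 to 0.0433 in BNIP3, -0.0383 to 0.146 in NDRG4 and -0.0557 to 0.0828 in SLC2A1. The cause of these differences was not tested. The other settings gave 20 to 26 changed members.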

Other observations

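Probe sets paired with a member and another gene were outside the comparison. For SLC2A3 with its near-identical neighbour SLC2A14, the 2 such probe sets had changes of 0.08 and 0.02 (adjusted p = 0.6 and 0.889 over all probe sets). For EGLN2 with read-through transcripts of RAB4B, the brighter of 2 lay at 9.35, 9.10 and 9.07 in siPCARNEQ and 9.20, 9.05 and 9.06 in siEGFP, above the array median, with a change of 0.07 (adjusted p = 0.709).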
